A study of Ananas comosus with 3 samples.

Results

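Contigs named for photosynthesis, photorespiration, pigments or the chloroplast were examined in the flesh of ripening pineapple (Ananas comosus), a fruit that ripens without the respiratory burst of climacteric fruits. A contig is a group of cDNA clones with overlapping sequence, taken to come from 1 transcript. A contig belonged to the list when the deposited gene name of one of its clones held chlorophyll, photosystem, light-harvesting, ribulose, rubisco, ferredoxin, plastocyanin, thylakoid, chloroplast, phytochrome, glyoxylate aminotransferase, glycolate oxidase, carotene or phytoene. Names with ribosomal, dismutase, protease or glyceraldehyde were left out. The rule gave 25 contigs, which held 29 of the 9278 cDNA elements printed on the array, and 23 of the contigs were represented by a single element.

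The names bore out the photosynthesis label only in part. Chloroplast was the sole matching word for 14 of the 25 contigs, and these range from a chaperonin, protein transport factors and a plastid RNA polymerase to enzymes of starch, lipid, heme and chlorophyll synthesis. Ferredoxin matched 4 contigs and thylakoid 2. Chlorophyll, phytoene, phytochrome, glyoxylate aminotransferase and rubisco matched 1 each, and the rubisco match was a subunit binding protein, the chaperonin that helps to assemble the enzyme, and not a subunit of the enzyme. The words photosystem, light-harvesting, ribulose, plastocyanin, glycolate oxidase and carotene matched 0 contigs. The photosystems, the antenna proteins and Rubisco itself were therefore not represented by name, and the values below describe chloroplast proteins around them.

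In green tissue, photosystems in the thylakoid membrane pass electrons through ferredoxin to ferredoxin-NADP reductase, which supplies NADPH for carbon fixation. When Rubisco takes up oxygen in place of carbon dioxide, photorespiration recovers the carbon through the chloroplast, the peroxisome and the mitochondrion, and serine-glyoxylate aminotransferase is one of its peroxisomal enzymes. As many fruits ripen, chlorophyll is lost and chloroplasts become chromoplasts, in which carotenoids often accumulate. Chlorophyll is built from magnesium-protoporphyrin, and phytoene desaturase acts early in carotenoid synthesis.

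Flesh of ripe mature yellow fruit was set against flesh of unripe mature green fruit on 3 cDNA slides. The fruit were field-grown Smooth Cayenne, Clone C10, and the flesh came from the middle of the fruit with skin and pith removed. Labeled cDNA of both stages was hybridized together to each slide. Mature yellow cDNA carried Cy3 on slides 1 and 3 and Cy5 on slide 2, where the dyes were exchanged. The methods mention experimental and biological repeats without saying which slides are which, so p-values measure the spread between these slides, which may be technical.

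Values are log2 ratios of mature yellow over mature green, after background correction with an offset of 50 intensity units and loess normalization within each slide. A positive value means a higher signal in mature yellow flesh. Both spots of an element were averaged, then the elements of a contig with equal weight. A feature, meaning a contig or an element without a contig number, was tested with limma and was called at a difference of 1.5-fold or more with a Benjamini-Hochberg adjusted p under 0.05 over all 7773 features. An exact permutation of the signs of 3 slides cannot give a two-sided p under 0.25. Net signal is spot intensity less its local background, and an element counted as above the blank spots where it exceeded their median by 2 robust SD. In whole flesh, fewer cells of a type and less RNA per cell cannot be told apart.

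Slides held 20000 to 21168 spots each, of which 308 to 547 were marked abnormal and left out. Of the spots of cDNA elements, 83.4% to 92.2% exceeded the blank spots. Between slides the log2 ratios of all features correlated with r from 0.37 to 0.67, a description over features that share slides. Of 5 fruit flesh marker contigs (fruit bromelain and metallothionein), 4 exceeded the blank spots on every slide, and so did 3 of 3 contigs named for roots. Of 75 further contigs with a nematode label, 40 did so, and their part in these results was not tested.

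Most of the 25 contigs had log2 ratios near 0, and the median over all features was also near 0 (0.0075). One of them, named putative serine-glyoxylate aminotransferase, was called, with contig 3411's mean 3.03-fold lower in mature yellow fruit. The other 24 lay between a log2 ratio of -0.12 and 0.47, and the largest of these differences was 1.38-fold, in the direction of mature yellow fruit. Called members therefore numbered 0 higher and 1 lower, against 0.129% of all features called in either direction. Leaving the test aside, 1 member of 25 (4%) differed by 1.5-fold or more, against 5.24% of all features.

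Small positive ratios were the more common among these contigs. The mean log2 ratio was positive in 18 of 25 (72%), against 53.2% of all features, and its median was 0.051, against 0.0075 over all features. The ratio kept one direction on every slide measured in 13 members (52%), 11 of them higher in mature yellow fruit and 2 lower, against 35.4% of all features. An unadjusted p under 0.05 from limma was reached by 4 members (16%), against 8.95%, and by 3 on the higher side (12%), against 5.43%. The slides differed in this respect. Positive ratios were found for 19 of 25 members on slide 1, against 51.7% of all features, for 12 of 23 on slide 2, against 49.9%, and for 21 of 25 on slide 3, against 53.1%. On the dye-swapped slide 2 the members' median was 0.0048, while it was 0.12 on slide 1 and 0.014 on slide 3. The median of the means was 0.025 without slide 1 and 0.077 without slide 2.

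**Figure D1:**
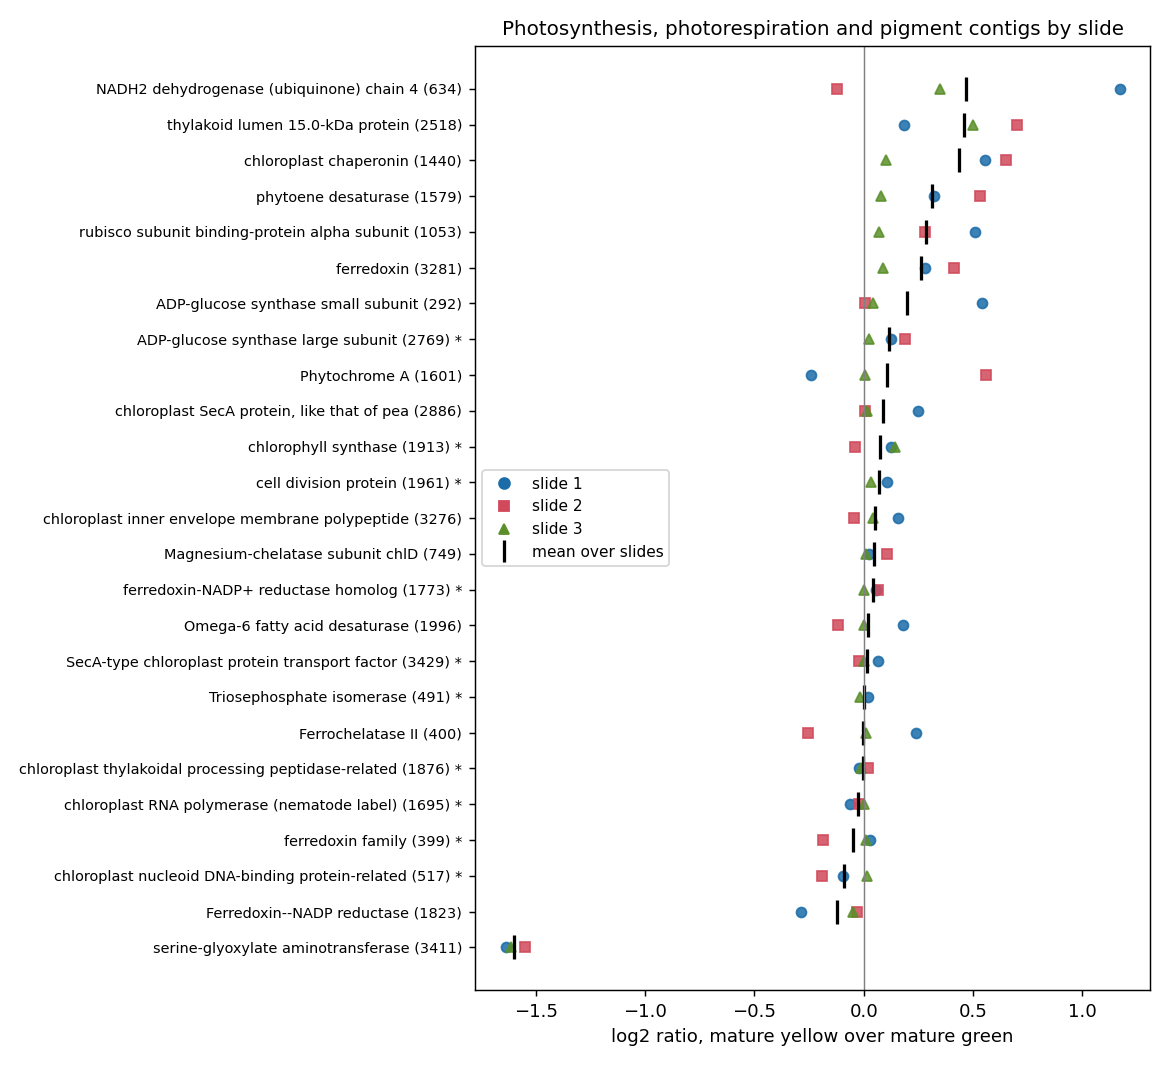
Log2 ratio of mature yellow over mature green (x axis) for each of the 25 contigs (y axis, contig number in brackets), with a point for each slide and a bar for the mean. An asterisk marks contigs that did not exceed the blank spots on every slide. The aminotransferase contig stands at -1.60, and the other 24 means lie between -0.12 and 0.47.

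Dimness limited what could be seen. Only 15 of the 25 contigs (60%) exceeded the blank spots in at least one channel on every slide, against 74.4% of all features. Over those 15 the median log2 ratio was 0.11, with 12 of them positive, against a median of 0.013 over all features that met the same condition. Contigs 3429 and 1773 exceeded the blank spots on no slide in either channel, so no fold is given for them. The offset pulls ratios of dim spots toward 0, and 14 of the 25 means lay within 0.1 of 0. The share of all features within that limit was not counted. With the offset at 0 the members' median was 0.13, against 0.016 over all features, and 1 member was called. With plain background subtraction, which also replaces the normexp model and leaves spots with a net signal of 0 or less without a ratio, so that 7162 features remained, the median was 0.55, against 0.015 over all features, and 0 members were called. The members' median net signal was 27.5, 60.0 and 18.2 units in the mature yellow channel on slides 1, 2 and 3, against 22.0, 80.5 and 6.23 units in the mature green channel.

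**Figure D2:**
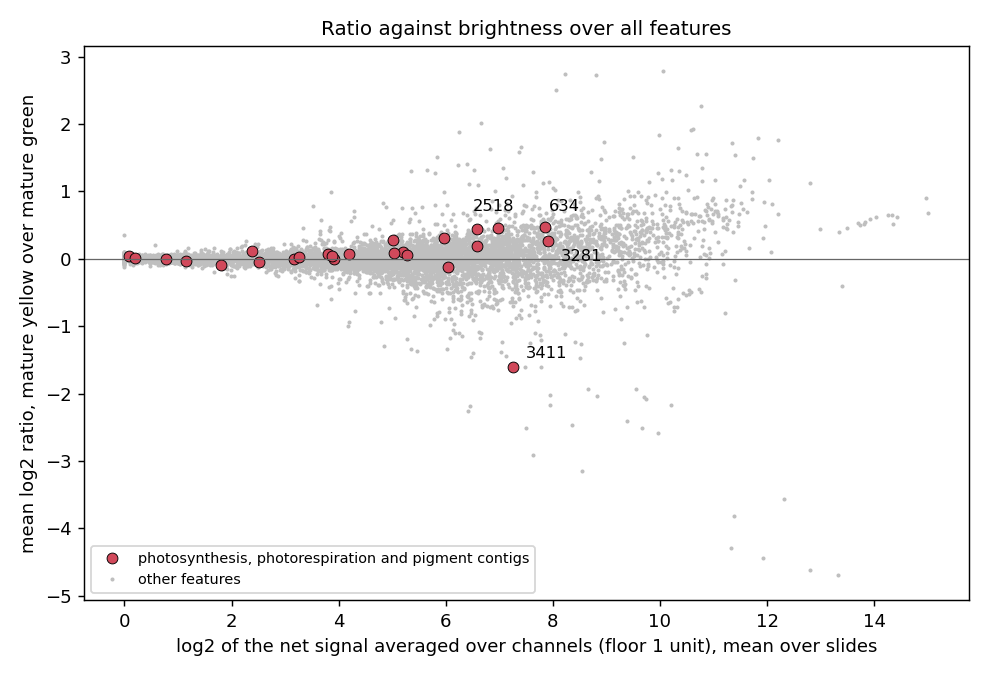
Mean log2 ratio of mature yellow over mature green (y axis) against the log2 of the net signal averaged over both channels and the slides, with a floor of 1 unit (x axis), for all 7773 features (grey) and the 25 contigs (red). The aminotransferase contig lies at -1.60, and the other 24 members lie between -0.12 and 0.47.

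Photorespiration was represented by a single contig. Serine-glyoxylate aminotransferase passes the amino group of serine to glyoxylate in the peroxisome and so returns photorespiratory carbon toward glycerate. By slide, contig 3411's log2 ratio was -1.64, -1.55 and -1.61 for slides 1, 2 and 3, with a mean of -1.60 ± 0.045 (SD, n = 3). Every slide was on the side of lower signal in mature yellow flesh, the dye-swapped slide included. The adjusted p from limma was 0.046, and the 95% interval ran from -1.75 to -1.45. By p-value it stood at rank 2 of the 7773 features.

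This narrow spread between slides hid a wide spread between the 4 clones of the contig. The clone that carries the name, JBW001E12, gave log2 ratios of 0.048, -0.10 and 0.012, with a mean of -0.013 ± 0.077 (SD, n = 3). Its net signal was -2.5, 10 and 0.38 units in the mature yellow channel, against 2, 28.5 and -0.86 units in the mature green channel. Each channel exceeded the blank spots on 1 of 3 slides only, so the named clone was at or near background, with ratios of both signs.

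The other 3 clones are listed as unsequenced in the files of all spots and carry the contig number only in the files of spots that passed the authors' 2xSD test. Clone JBW014H12 gave log2 ratios of -5.04, -4.70 and -3.98, a mean of -4.57 ± 0.54 (SD, n = 3), or 23.7-fold lower in mature yellow flesh. Its net signal was 84.5, 259 and 140 units in the mature yellow channel, against 3930, 14484 and 2927 units in the mature green channel. Both channels exceeded the blank spots on every slide, and every mature yellow value lay below every mature green one. Clone JBW016B04 gave -0.73, -1.0 and -0.82, or 1.8-fold lower on average, with net signals of 131, 163 and 66.7 units in mature yellow flesh, against 178, 594.5 and 123 units in mature green flesh. For clone JBW017A05 the ratios were -0.84, -0.41 and -1.67, or 1.96-fold lower, with net signals of 296, 539 and 101 units in mature yellow flesh, against 405, 1125 and 361 units in mature green flesh. Both clones were lower in mature yellow flesh on each slide, by far less than JBW014H12. From slide 1 to slide 3 the ratio of JBW014H12 rose while that of JBW017A05 (SD 0.64) fell. These shifts partly cancelled in the contig mean, whose SD of 0.045 was narrower than that of any of its clones. The adjusted p, interval and rank of the contig therefore describe that average and not the spread of any one clone.

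**Figure D3:**
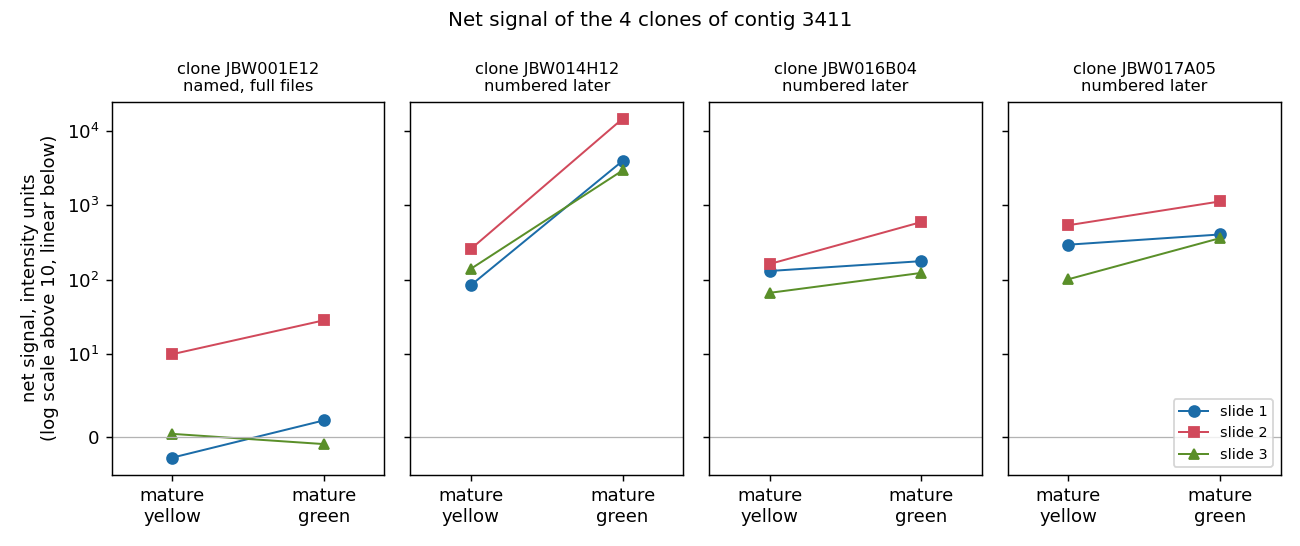
Net signal in intensity units (y axis, logarithmic above 10 and linear below) of the mature yellow and mature green channels for the 4 clones of the aminotransferase contig, with a line for each slide. Clone JBW014H12 shows 84.5 to 259 units in mature yellow and 2927 to 14484 units in mature green flesh, whereas the named clone JBW001E12 lies between -2.5 and 28.5 units.

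The call on the aminotransferase contig turned on these clones. Without JBW014H12 the mean was -0.61 with an adjusted p of 0.24, and with the named clone alone it was -0.013 with an adjusted p of 0.97. Leaving out JBW017A05 gave -1.81 with an adjusted p of 0.055, and leaving out JBW001E12 or JBW016B04 kept the call. With slide 1, 2 or 3 left out the call was also lost, at adjusted p-values of 0.78, 0.071 and 0.13, while the mean stayed between -1.63 and -1.58. With each element tested as a feature of its own, 2 of the 29 member elements were called, against 2.39% of all elements. These were JBW014H12 (adjusted p 0.015 from limma) and JBW016B04 (adjusted p 0.039), both lower in mature yellow flesh. Both carry the contig number only in the files of spots past the 2xSD test, so they joined the list through their ratio. The 26 member elements named in the files of all spots were not called, so the share is no evidence about the list. JBW017A05 had an adjusted p of 0.36.

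Clones numbered later were also chosen by their ratio. According to the methods, unsequenced clones were sequenced when they passed the p-value, 2xSD and fold limits of the study on these same slides. Of 413 elements numbered only in this way, 94.7% differed by 1.5-fold or more here, against 5.11% of the other 8865 elements. The direction and size of the 3 added clones are therefore not independent evidence about the aminotransferase contig, and its adjusted p does not account for that choice.

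A range of 4.56 on the log2 scale between clone means was unusual but not unique to this contig. Among 605 contigs with at least 2 elements the median range was 0.17, and contig 3411's range had rank 17 from the widest. The median range was 1.66 in the 89 contigs with elements from both kinds of file and 0.13 in the 512 contigs whose elements were all numbered in the files of all spots, none of which had a range as wide. JBW014H12 was also not alone in its ratio, since 102 other elements had a mean as low or lower. Of these, 75 were numbered contig 124, whose 152 elements averaged -4.13, -4.13 and -3.21 on slides 1, 2 and 3. That contig has no gene name in the files of all spots, and the paper describes Ac124 as a bromelain inhibitor. Whether JBW014H12 holds the sequence of the aminotransferase was not tested.

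**Figure D4:**
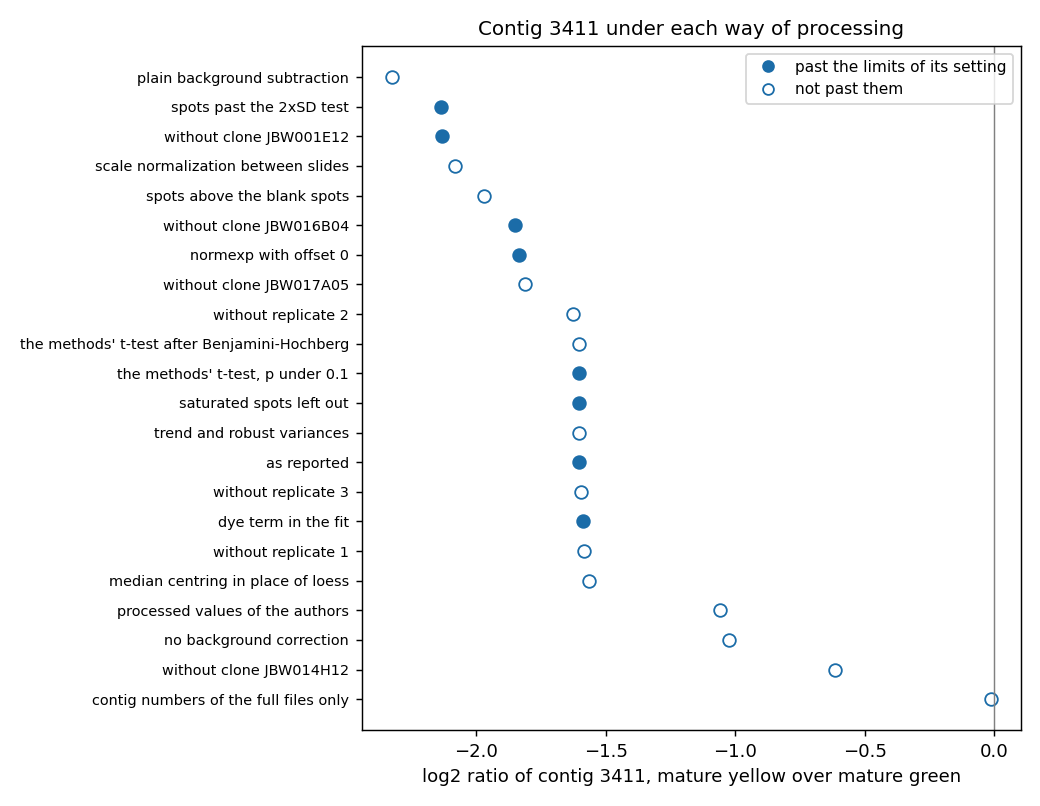
Mean log2 ratio of the aminotransferase contig, mature yellow over mature green (x axis), as reported and under 21 other ways of processing (y axis). Filled points passed the limits of their setting and open points did not. All values are negative, from -2.33 with plain background subtraction to -0.013 with the named clone alone.

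Ratios of the electron carriers were of both signs, and none was called. Contig 3281, ferredoxin, the soluble iron-sulfur protein that accepts electrons from photosystem I, had log2 ratios of 0.28, 0.41 and 0.089, a mean of 0.26 ± 0.16 (SD, n = 3) or 1.20-fold, with an adjusted p of 0.54. Net signals of this clone were 418, 831 and 70.0 units in mature yellow flesh, against 223, 931 and 29.8 units in mature green flesh. Its ratio was positive on each slide but failed the adjusted test. Contig 1823, ferredoxin-NADP reductase, the enzyme that takes electrons from ferredoxin, was the lowest of the other members at -0.29, -0.033 and -0.050, a mean of -0.12 ± 0.14 (SD, n = 3) and an adjusted p of 0.72. A second contig named for that reductase, 1773, was at background, and a ferredoxin family contig, 399, averaged -0.050 but exceeded the blank spots on 1 slide in the mature yellow channel and on 2 in the mature green channel.

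Thylakoid proteins were represented by a pair of contigs. Contig 2518, named thylakoid lumen protein, gave 0.19, 0.70 and 0.50, a mean of 0.46 ± 0.26 (SD, n = 3) or 1.38-fold higher. It was on the mature yellow side on all 3 slides, but with an adjusted p of 0.45 from limma (unadjusted 0.022) it was not called. Its net signals were 83.0, 213 and 245 units in mature yellow flesh, against 45.5, 154 and 88.5 units in mature green flesh. Contig 1876, related to the thylakoidal processing peptidase, which trims proteins on import into the thylakoid lumen, averaged -0.0041 ± 0.022 (SD, n = 3), with values of both signs. Each channel exceeded the blank spots on 2 slides only. On slide 3 the net signal was -3.4 units in mature yellow flesh and -0.35 units in mature green flesh.

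No contig of pigment synthesis was called. Contig 1579, phytoene desaturase, had log2 ratios of 0.32, 0.53 and 0.079, a mean of 0.31 ± 0.23 (SD, n = 3) or 1.24-fold higher, with an interval from -0.0021 to 0.62 and an adjusted p of 0.57. Its net signals were 73.5, 118 and 60.3 units in mature yellow flesh, against 32.5, 96.5 and 25.3 units in mature green flesh, so mature yellow was the brighter channel on each slide before normalization, whereas over all elements it was the brighter on slides 1 and 3 only. Contig 1913, chlorophyll synthase, which attaches the phytol tail in the last step of chlorophyll synthesis, gave 0.12, -0.038 and 0.14, an average of 0.076 ± 0.099 (SD, n = 3) with an adjusted p of 0.81, and it exceeded the blank spots on 2 slides. Magnesium chelatase subunit chlD (contig 749), part of the enzyme that commits protoporphyrin to chlorophyll, averaged 0.047, and ferrochelatase II (contig 400), which inserts iron into the same precursor for heme, averaged -0.0022 with slides from -0.26 to 0.24.

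The chaperonins for Rubisco and other chloroplast proteins had positive ratios that were not called. Contig 1053, the rubisco subunit binding protein alpha subunit, gave 0.51, 0.28 and 0.069, a mean of 0.29 ± 0.22 (SD, n = 3) or 1.22-fold. Contig 1440, named putative chloroplast chaperonin, gave 0.55, 0.65 and 0.10, a mean of 0.44 ± 0.29 (SD, n = 3) or 1.35-fold. Both were positive on all 3 slides, and neither passed the adjusted test (adjusted p 0.57 and 0.52).

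Among the 14 remaining chloroplast proteins, of which contig 1440 is one, 11 had a positive mean and the median was 0.049. Contig 634, named as chain 4 of a chloroplast NADH dehydrogenase, had the highest mean of all members, 0.47 ± 0.65 (SD, n = 3). Its slides disagreed, at 1.17, -0.12 and 0.35, with net signals of 567, 253 and 156 units in mature yellow flesh, against 139, 415 and 54.8 units in mature green flesh, and the adjusted p was 0.70. Contig 517, related to a chloroplast nucleoid DNA-binding protein, had the lowest mean of this group, -0.090 ± 0.10 (SD, n = 3). It was near background, above the blank spots on 1 slide in the mature yellow channel and on 2 in the mature green channel. The small and large subunits of ADP-glucose synthase, which makes the sugar nucleotide for starch, averaged 0.20 (contig 292) and 0.11 (contig 2769). Both were positive on all 3 slides, but contig 292 gave 0.54, 0.0053 and 0.044, so its mean rested mainly on slide 1. The large subunit exceeded the blank spots on 1 slide only. Contig 1695, the plastid RNA polymerase, carries a nematode label in its name and averaged -0.027, with each channel above the blank spots on 1 slide only. Contigs 491 and 1961 had values on slides 1 and 3 only, since their spots on slide 2 were marked abnormal.

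Phytochrome A, the receptor that plants use to sense far-red light, was represented by a contig of 2 clones. The contig gave -0.24, 0.56 and 0.0049, a mean of 0.11 ± 0.41 (SD, n = 3), with an interval from -0.42 to 0.63 and an adjusted p of 0.91. The wider spread was that of clone JBW058D11, at -0.31, 0.92 and 0.014, while clone JBW095F06 gave -0.18, 0.20 and -0.0044. Both clones were lower in mature yellow flesh on slide 1 and higher on the dye-swapped slide 2, so without slide 2 the mean was -0.12.

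Neighbouring enzymes outside the list were named by fixed keywords. Of 8 further contigs found by the photorespiration keywords, which also take phosphoglycerate enzymes of glycolysis, 0 were called by limma (0.129% of all features), 1 had an unadjusted p under 0.05 and was lower (8.95% of all features in either direction), 5 had a positive mean (53.2% of all features) and the median was 0.15. In 5 of the 8 the signal exceeded the blank spots on every slide. Catalase 2 (contig 2778), which removes hydrogen peroxide in the peroxisome, had the lowest ratio of them, -1.40, -1.53 and -0.40, a mean of -1.11 ± 0.62 (SD, n = 3). That is 2.16-fold lower in mature yellow flesh on average and negative on all 3 slides, but its adjusted p was 0.42 (unadjusted 0.018). The H-protein of the glycine decarboxylase complex (contig 138, 4 elements), which works in the mitochondrial step of photorespiration, gave 0.43, -0.35 and 0.56 and an adjusted p of 0.85. Peroxisomal ascorbate peroxidase (contig 3096) gave 0.81, -0.031 and 0.69, an average of 0.49 with an adjusted p of 0.58. The paper reports this contig as increased in mature yellow fruit, both on its arrays and by qRT-PCR.

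In the other neighbouring lists limma called 0 contigs, and 0 had an unadjusted p under 0.05, against 0.129% and 8.95% of all features. Isopentenyl pyrophosphate isomerase (contig 3008), which feeds carotenoid synthesis, averaged 0.090 ± 0.36 (SD, n = 3). The contig of phosphoenolpyruvate carboxylase (contig 2025), the enzyme of nocturnal carbon dioxide uptake in CAM plants such as pineapple, exceeded the blank spots on 0 slides in either channel, so no ratio is given for it. Transketolase (contig 755), an enzyme of the Calvin cycle that was above the blank spots on all 3 slides, averaged 0.038. A pair of contigs named far-red impaired response protein had a median of -0.032, and a plastid ATP/ADP transporter (contig 2228) and the plastid division protein ARC6 (contig 3057) averaged 0.047 and 0.072, although neither exceeded the blank spots on every slide. The keywords for other chlorophyll and tetrapyrrole enzymes matched 0 contigs outside the list.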

How the data were processed

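The authors deposited, per the file headers, scanner intensity of both channels and of local background for every spot, neither background corrected nor normalized (medians for slides 1 and 2, means for slide 3). They also deposited intensity values of spots past their 2xSD test, with contig numbers of clones sequenced later, and a table with 1 score for each contig and slide (a ratio, or minus its reciprocal where it is below 1), LOWESS normalized according to the methods. Set against the scanner values, the column of slide 2 ran the other way (r = -0.89 over 2219 contigs) and was turned before use as an alternative. Its 7 values between -1 and 1 were left out (6 on slide 1 and 1 on slide 2).

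Slides were computed in R 4.3.3 with limma 3.58.1: normexp with an offset of 50, loess with blank and control spots at weight 0, and an intercept fit with moderated variances (prior degrees of freedom 1.65) over features measured on at least 2 slides. The procedure was tested on simulated data. Python 3.11.15 with matplotlib 3.10.9 drew the figures. The members and lists were chosen with earlier results of these data known. Genes named are the aminotransferase and phytochrome A contigs, members at 1.5-fold or at an unadjusted p under 0.05, and the highest and lowest member of each role group, with further members given as values. Alternatives covered background correction, normalization, filters, the unit of a feature, the fit, the processed values and each slide left out. Columns of values per sample not used number 0. Sequences and genome positions of the clones were not analysed here.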

Additional observations from a re-analysis of the deposited data

How the results depend on the processing

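The serine-glyoxylate aminotransferase contig stayed below 0 in all 21 alternatives and passed the limits of its setting in 7 of them. All settings computed from scanner values, apart from the named clone alone, included clones chosen by their ratio. Their shared sign is therefore not independent evidence. The contig passed with an offset of 0 (-1.83), over spots past the 2xSD test (-2.13), with a dye term (-1.59) and with saturated spots left out (-1.60). It also passed by an ordinary one-sample test at unadjusted p under 0.1 (-1.60) and, chosen later, without JBW001E12 (-2.13) or JBW016B04 (-1.85). It was not called without background correction (-1.03), with plain background subtraction (-2.33), with median centring (-1.56), after scale normalization between slides (-2.08), over spots above the blank spots (-1.97), with its named clone alone (-0.013), with trend and robust variances (-1.60), in the processed values of the authors (-1.06), by an ordinary one-sample test after Benjamini-Hochberg adjustment (-1.60), without any one slide (-1.63 to -1.58), or, in alternatives chosen after the data were seen, without clone JBW014H12 (-0.61) or clone JBW017A05 (-1.81). Its adjusted p ranged from 0.0019 to 0.97 over the alternatives. Members called numbered 0 in each setting where the contig was not called, apart from the clone alternatives, where they were not counted. They numbered 2 with each element a feature, both of them clones chosen by their ratio.

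Features called over the whole array numbered 10 as reported, 19 without background correction, 59 with plain subtraction, 34 with an offset of 0, 6 with median centring, 0 after scaling between slides, 18 over spots above the blank spots, 110 over spots past the 2xSD test, 222 with each element a feature, 227 when clones numbered later stayed separate, 68 with a dye term, 0 with trend and robust variances, 138 in the processed values and 0 to 5 without one slide. The ordinary test called 212 at the p limit of 0.1 given in the methods and 0 after adjustment.

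The members' median log2 ratio was 0.55 with plain subtraction (0.015 over all features), 0.13 with an offset of 0 (0.016), 0.41 over spots past the 2xSD test (0.16) and 0.29 in the processed values (0.17). The sets differ in size: of 7773 features, 2127 remained over spots past the 2xSD test and 2221 in the processed values. Only 8 of the 25 members had any spot past the 2xSD test, so that median does not cover the whole list. Some members were also missing from the processed values, and most of those present had no value on slide 3. The slide 3 column held 687 values, against 2211 on slide 1, and correlated with the scanner values at r = 0.54. The members' median kept its sign in every alternative, and without any one slide it lay between 0.025 and 0.077. The phytochrome A contig lay between -0.12 and 0.28 without one slide, with the negative value without slide 2. The thylakoidal processing peptidase contig, near 0 as reported, turned to 0.015 without background correction, 0.019 with plain subtraction, 0.00067 over spots above the blank spots and 0.0020 with a dye term, and lay between -0.016 and 0.0034 without one slide. The peptidase contig did not exceed the blank spots on slide 3. The cause of these shifts was not tested. The fit was paired in that each ratio compared both stages on the same slide. No further pairing of slides was possible, because the slides form 1 group. Low signal over background limited many members, since 10 of the 25 did not exceed the blank spots on every slide. No spot past the authors' 2xSD test was found for 17 of the 25. The share of all features without such a spot was not counted, and 2127 of 7773 had one on at least 2 slides.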

Other observations

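Contig 3388, chosen after its values were seen, is named putative (S)-2-hydroxy-acid oxidase, the enzyme family that includes the photorespiratory glycolate oxidase, and its name held none of the keywords. It averaged -2.08 ± 0.28 (SD, n = 3), or 4.23-fold lower in mature yellow flesh, with an adjusted p of 0.073 from limma. Of its 7 elements, 6 were numbered later, and they ranged from -4.94 (JBW012B08) to 2.37 (JBW012F09) in mean log2 ratio. Such clones were chosen by their ratio on these slides, which the adjusted p does not account for. The mean, SD and fold of the contig describe an average over unlike clones and not any one of them. The single named element, JBW002G07, gave -0.021, -0.15 and 0.064, with an adjusted p of 0.91 when the contig rested on it alone. As in the aminotransferase contig, the named clone lay near 0 and later numbered clones lay far from it, but those of this contig lay on both sides of 0.

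Clone JBW014E10, whose contig is described as a photosystem II protein only in the supplement of the study, is unsequenced in the files and was no member. It gave -5.10, -4.81 and -4.18, a mean of -4.70 ± 0.47 (SD, n = 3), which is 25.9-fold lower in mature yellow flesh with an adjusted p of 0.046 from limma. Its contig rested on 1 element. As an unsequenced clone it was numbered later, and such clones were chosen by their ratio on these slides, which the adjusted p does not account for. The clone was one of the 102 elements with a mean as low as that of clone JBW014H12 or lower.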
